A study of Mus musculus with 24 samples.

Results

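The genes described here are 7 matrix metalloproteinases (Mmp2, Mmp3, Mmp7, Mmp9, Mmp10, Mmp13 and Mmp14) and 3 tissue inhibitors of metalloproteinases (Timp1, Timp2 and Timp3), measured in primary mouse alveolar type II cells. They were taken by name: every probe that was not a control spot and that the array design names after one of these genes was used, which gave 11 probes on 20 spots for 10 of the 24050 named genes on the array. They were selected on their processed signals across all 6 groups, so their levels, differences, intervals and calls at a threshold are descriptions. The p-values behind those calls are not printed. Lists of related genes and of cell markers were also chosen with earlier results known, so the p-values printed for them are descriptions too. Freshly isolated mouse cells were grown at an air-liquid interface for 3 days before treatment, and messenger RNA was then measured on 24 one-colour Agilent arrays, 4 in each of 6 groups. In the first experiment the groups were NaHS (sodium hydrosulfide, a salt that releases hydrogen sulfide quickly) at 100 µM for 24 h, NaHS at 100 µM for 6 h, vehicle (the culture medium DMEM) for 24 h, and vehicle for 6 h. In the second the groups were GYY4137 (a donor that releases hydrogen sulfide slowly) at 100 µM for 24 h in 85% O2, and GYY4137 at 100 µM for 24 h in 21% O2. All 8 arrays of the second experiment carried the donor, and no donor-free arrays of it were analysed here. The labels do not say whether the 4 samples of a group came from separate cultures or animals, so the errors below describe the spread between these samples, which may be technical.

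Matrix metalloproteinases are zinc-dependent enzymes that cleave collagens, laminin, fibronectin and other matrix proteins, and they also release or activate growth factors and cytokines. Most are secreted as inactive proenzymes, while Mmp14 sits in the cell membrane, where it works with Timp2 to activate the proenzyme of Mmp2. Timp1, Timp2 and Timp3 bind the active enzymes and block them, and Timp3 is held in the matrix itself. In the lung these enzymes take part in the remodelling of the basement membrane during epithelial repair. The arrays read transcripts only, not proenzymes or enzyme activity.

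The promoter sequences below are shown because 4 of the 7 enzyme genes share both a chromosomal neighbourhood and a short regulatory motif, while their levels differed in how they varied between groups. Mmp13, Mmp3, Mmp10 and Mmp7 lie in that order on the plus strand of chromosome 9 of GRCm38.p6. Each line gives the 80 bases before the RefSeq transcription start, 5′ to 3′, with TGACTCA or its reverse complement TGAGTCA, the site known for binding AP-1 (dimers of Fos and Jun proteins), and the TATAAA box in capitals.
Mmp13: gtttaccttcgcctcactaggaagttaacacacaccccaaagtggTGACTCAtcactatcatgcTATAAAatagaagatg
Mmp3: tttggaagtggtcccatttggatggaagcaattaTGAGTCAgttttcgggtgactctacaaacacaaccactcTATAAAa
Mmp10: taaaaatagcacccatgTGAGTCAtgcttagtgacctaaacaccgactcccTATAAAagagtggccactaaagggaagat
Mmp7: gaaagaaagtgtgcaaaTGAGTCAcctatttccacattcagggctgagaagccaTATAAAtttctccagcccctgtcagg

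These stretches lie at chr9:7272434-7272513 for Mmp13, chr9:7445742-7445821 for Mmp3, chr9:7502262-7502341 for Mmp10 and chr9:7692010-7692089 for Mmp7. The AP-1 motif begins 35 bases before the start in Mmp13, 46 in Mmp3, and 63 in both Mmp10 and Mmp7, and the TATAAA box begins after it by 19, 39, 34 and 37 bases in Mmp13, Mmp3, Mmp10 and Mmp7. Windows of 300 bases (250 before to 50 after a start) were at hand for 8 of the 10 genes, and those of Mmp14, Timp1, Timp2 and Timp3 hold no AP-1 motif on either strand; a window at another start of Mmp7 holds none. Among the family genes that have windows, these and others, the motif stands in 7 of 12 windows (10 genes) on chromosome 9 and in 0 of 14 windows (13 genes) elsewhere. Of all 32851 RefSeq promoter windows of that length, 5.20% hold the AP-1 motif, 8.32% hold TATAAA and 0.624% hold both. A match of letters is not a measured binding site, and nothing is drawn from a window without one.

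All values below are the log2 of the scanner software's processed signal minus the 75th percentile of the same array, so 0 is the level of that percentile. A higher number means a brighter probe, and levels of different probes cannot be set against each other. The first experiment was run on 2 slides, each holding 2 arrays of each of its 4 groups, and the second on 2 more, with all arrays in 85% O2 on slide 4 and all in 21% O2 on slide 3, so that oxygen level and slide cannot be told apart. On slide 1 only 55.8% to 58.3% of the spots of an array were well above background, whereas the other slides reached 68.5% to 78.2%. Between slides 1 and 2, limma with Benjamini-Hochberg adjustment over all genes called 47.2% of 33249 genes or unnamed probes at an adjusted p under 0.05. Of the genes described here, Mmp7 was touched most by this: it differed by 3.22 ± 0.39 (SE) on the log2 scale, slide 2 minus slide 1. Mmp9 differed by -1.17 ± 0.49 and Timp1 by -0.35 ± 0.10 (SE).

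The arrays were checked against markers of the labelled cell type and of others. Of 10 alveolar type II markers, 8, among them the surfactant genes Sftpc and Sftpb, lay well above background on all 24 arrays, Sftpa1 did so on 21, and Slc34a2 did not pass the filter in either experiment. Transcripts of mesenchymal cells were also measured throughout. All 9 smooth muscle and pericyte markers and 12 of 14 fibroblast markers, Col1a1 and Pdgfra among them, lay well above background on all 24 arrays. Macrophage markers did so for 6 of 11 genes on the 16 arrays of the first experiment, endothelial markers for 3 of 8 and neutrophil markers for 4 of 8. Fibroblasts, smooth muscle and macrophages are all known to make several of the proteases and inhibitors described here, and which cells gave the signals was not tested. In RNA of a mixed culture, fewer cells of a type and less RNA per cell cannot be told apart.

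**Figure D1:**
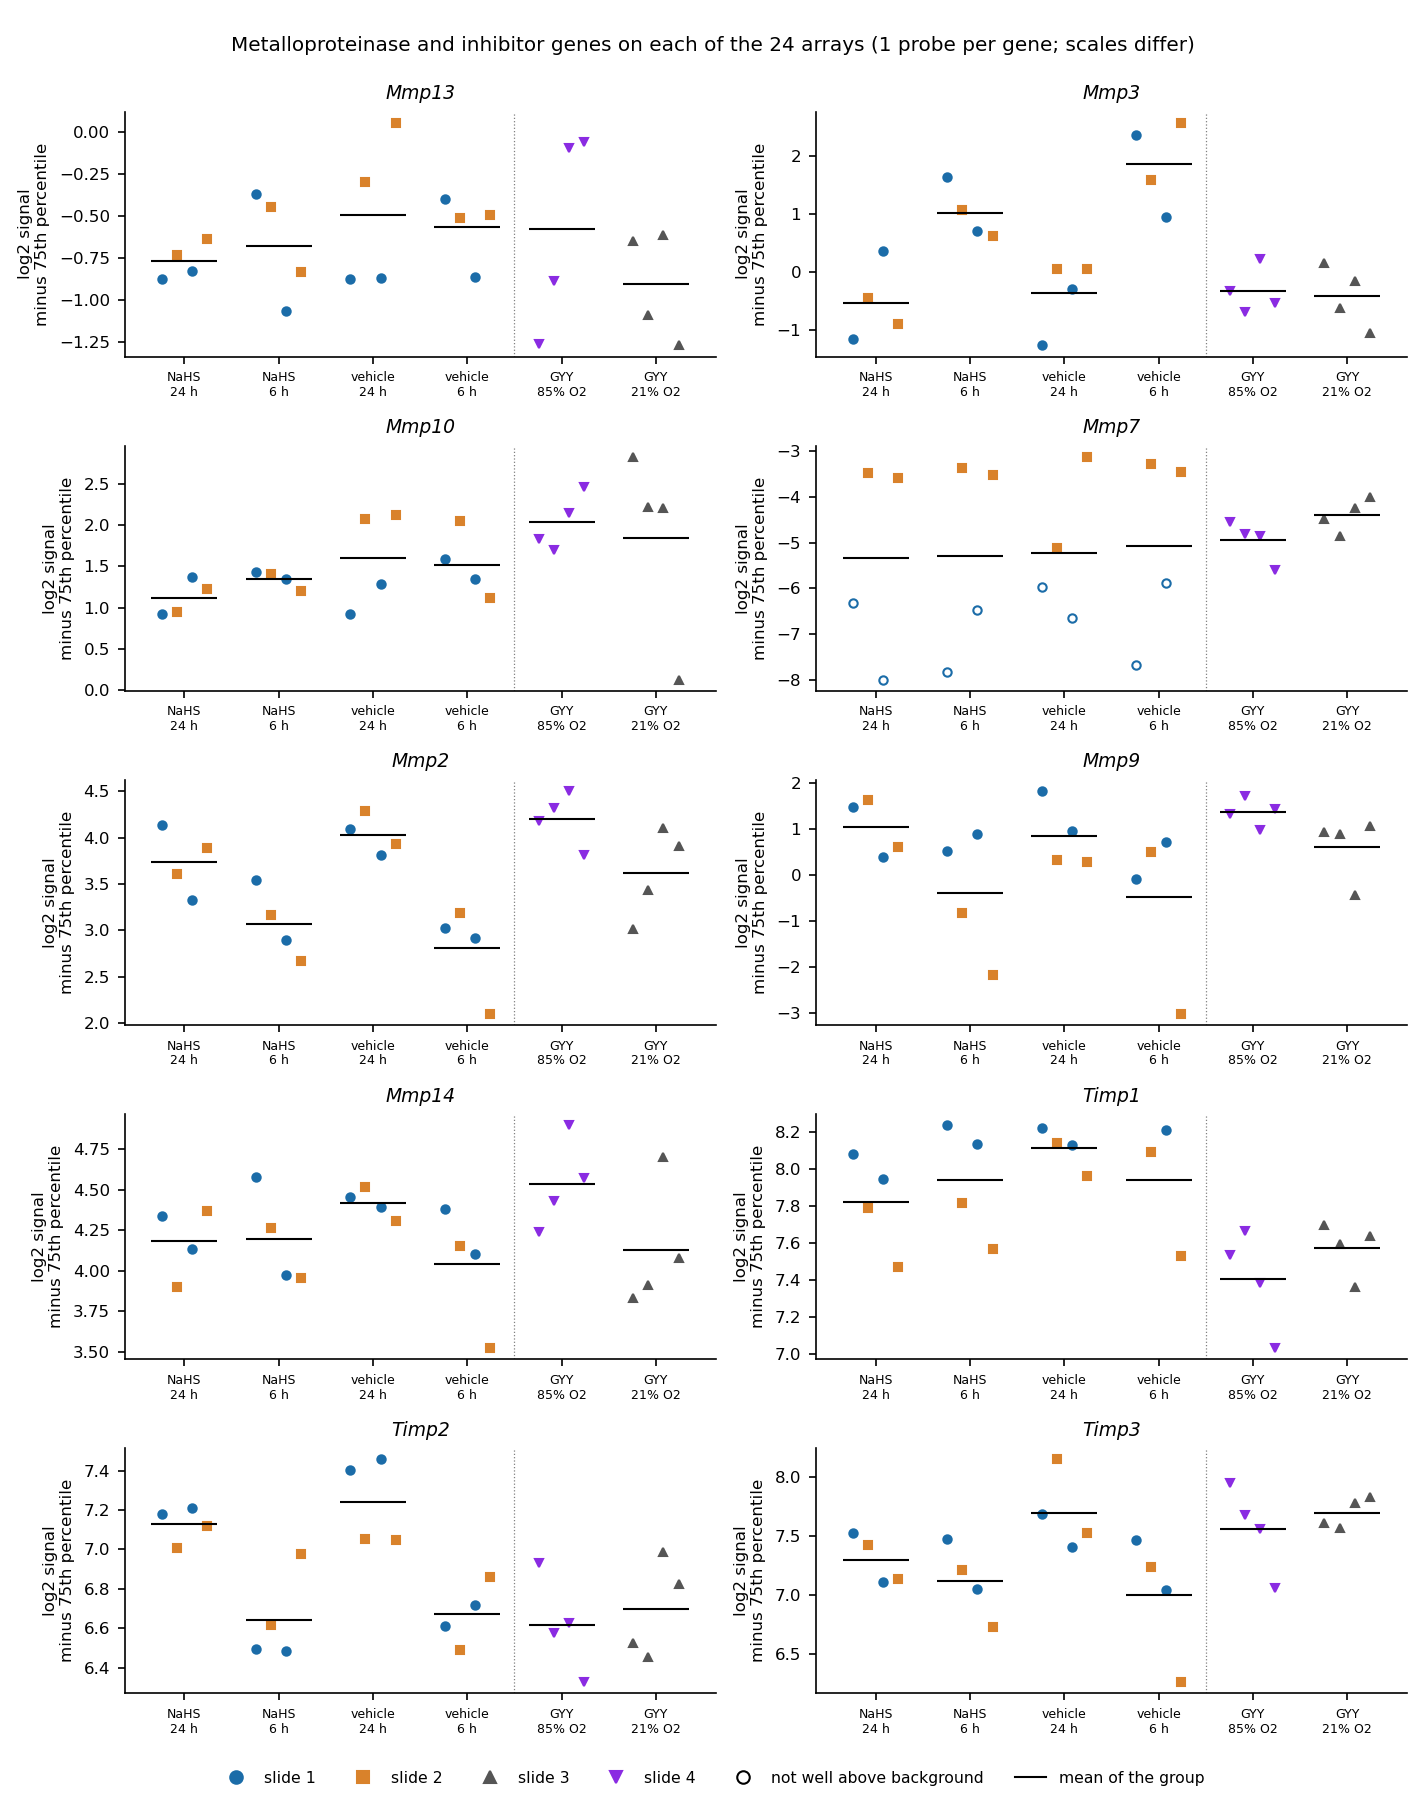
Level of each gene (y axis, log2 processed signal minus the 75th percentile of the array; scales differ between panels) on every array, by group, with replicates 1 to 4 from left to right within a group, the symbol giving the slide and the line the group mean. Mmp3 lies lower and Mmp2 higher at 24 h than at 6 h in vehicle without overlap, and the open symbols of Mmp7 mark the 8 arrays of slide 1, where its probe was not well above background.

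The genes of the chromosome 9 cluster differed in how steady they were. Mmp3 (stromelysin-1), which cleaves many matrix proteins and activates other proenzymes, differed between the times. On replicates 1 to 4 it stood at -1.14, -0.44, 0.37 and -0.88 in NaHS at 24 h, and at 1.63, 1.07, 0.71 and 0.62 in NaHS at 6 h. In vehicle it stood at -1.26, 0.06, -0.29 and 0.06 at 24 h, against 2.35, 1.59, 0.95 and 2.56 at 6 h. All 8 arrays at 24 h of the first experiment lay below all 8 at 6 h. In the second experiment, whose arrays were all at 24 h, it stood at -0.32, -0.69, 0.22 and -0.54 in 85% O2 and at 0.16, -0.61, -0.14 and -1.05 in 21% O2, and these groups overlap.

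Mmp10 (stromelysin-2), whose protein cleaves much the same substrates, did not separate the times. It averaged 1.12 ± 0.22 in NaHS at 24 h, 1.34 ± 0.10 in NaHS at 6 h, 1.60 ± 0.60 in vehicle at 24 h and 1.52 ± 0.40 in vehicle at 6 h (SD, n = 4 each), and the 4 ranges overlap. In the second experiment it averaged 2.04 ± 0.34 in 85% O2 and 1.85 ± 1.18 in 21% O2 (SD, n = 4 each), the wide spread coming from replicate 4 in 21% O2 at 0.13 against 2.20 to 2.83 for the other 3. Mmp13 (collagenase-3), which cleaves fibrillar collagens, kept between -1.06 and 0.06 over all 16 arrays of the first experiment and between -1.27 and -0.05 over the 8 of the second.

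Mmp7 (matrilysin), a protease of secretory epithelia, was the only one of the 10 genes not well above background on every array. Its probe lay well above background on 0 of 8 arrays of slide 1, 8 of 8 of slide 2 and 8 of 8 of the second experiment. On replicates 2 and 4, which lie on slide 2, it stood at -3.48 and -3.59 in NaHS at 24 h, against -3.37 and -3.53 at 6 h. In vehicle these replicates stood at -5.13 and -3.13 at 24 h, against -3.30 and -3.47 at 6 h. Vehicle replicate 2 at 24 h is the lowest of these, and the other 7 lie close together. Its differences in the first experiment use all 4 arrays a group, of which only 2 were well above background.

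The gelatinases cleave denatured collagen and the collagen of basement membranes. Mmp2 (gelatinase A), a product of many mesenchymal cells, stood at 4.14, 3.60, 3.33 and 3.88 in NaHS at 24 h, and at 3.54, 3.17, 2.89 and 2.67 in NaHS at 6 h. In vehicle it stood at 4.09, 4.28, 3.81 and 3.93 at 24 h, against 3.03, 3.19, 2.92 and 2.10 at 6 h. The vehicle groups do not overlap, while in NaHS replicate 3 at 24 h lies below replicate 1 at 6 h.

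Mmp9 (gelatinase B), a product of leukocytes and of injured epithelium among others, was read by 1 probe printed on 10 spots, whose SD within an array had a median of 0.129 and reached 0.263 on the log2 scale. It stood at 1.48, 1.63, 0.39 and 0.61 in NaHS at 24 h, and at 0.50, -0.84, 0.89 and -2.20 in NaHS at 6 h. In vehicle it stood at 1.82, 0.32, 0.96 and 0.27 at 24 h, against -0.11, 0.48, 0.71 and -3.03 at 6 h. The spread at 6 h, with an SD of 1.40 in NaHS and 1.73 in vehicle, is far wider than that between the 10 spots. It comes mainly from replicate 4 of each arm, which lies on slide 2. The same arrays carried the highest mean of the alveolar type II markers, at 2.63 in NaHS and 2.11 in vehicle against 0.88 to 1.53 and 1.01 to 1.14 on the other 6 h arrays of the same arms, and the highest of the alveolar type I markers, at 2.40 and 2.07. They also carried the lowest mean of the smooth muscle markers, at 2.04 and 1.83. Their macrophage mean was the highest of the 6 h arrays of each arm, at -1.72 in NaHS against -3.23 to -2.22. In vehicle it was -1.93 against -3.16 to -2.35. The endothelial, fibroblast, neutrophil and airway lists were not at the same extreme on both arrays. The part of these markers in the values of Mmp9 was not tested.

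Vehicle replicate 4 at 6 h was also the lowest of the 16 arrays for Mmp2, Mmp14 and Timp3. Mmp14 (membrane-type 1 metalloproteinase) averaged 4.18 ± 0.22 in NaHS at 24 h, 4.19 ± 0.29 in NaHS at 6 h, 4.42 ± 0.09 in vehicle at 24 h and 4.04 ± 0.37 in vehicle at 6 h (SD, n = 4 each). These ranges overlap, as do those of 4.24 to 4.90 in 85% O2 and 3.83 to 4.70 in 21% O2.

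Among the inhibitors, Timp1 stayed between 7.47 and 8.24 in the first experiment and between 7.03 and 7.70 in the second. Its spot on vehicle replicate 1 at 6 h was marked as an outlier by the scanner software and left out, so that group holds 3 values for it. Timp3 stayed between 7.06 and 7.94 in the second experiment. In the first it averaged 7.30 ± 0.21 in NaHS at 24 h, against 7.12 ± 0.31 at 6 h (SD, n = 4 each). Vehicle arrays ranged between 7.41 and 8.15 at 24 h, against 6.26 to 7.46 at 6 h, and the groups overlap.

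Timp2 stood at 7.18, 7.01, 7.21 and 7.12 in NaHS at 24 h, and at 6.50, 6.62, 6.48 and 6.98 in NaHS at 6 h. In vehicle it stood at 7.40, 7.05, 7.46 and 7.05 at 24 h, against 6.61, 6.49, 6.72 and 6.86 at 6 h. In each arm all 4 arrays at 24 h lay above all 4 at 6 h, though replicate 4 in NaHS at 6 h came close to the lowest at 24 h. The other Timp2 probe reads a different stretch of the transcript, on the minus strand of chromosome 11 in mm9, between 118171964 and 118178741. These 60 bases span 6778 bases of the genome, so the probe crosses at least 1 splice junction, and it is shown because it did not separate the times as the other probe did.
Timp2 junction probe: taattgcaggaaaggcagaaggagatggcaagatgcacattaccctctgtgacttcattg

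On that probe the 24 h minus 6 h difference was 0.31 in NaHS and 0.16 in vehicle, against 0.49 and 0.57 on the probe that stands for the gene, and the groups overlap in both arms.

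The comparison of 24 h with 6 h asks how these transcripts differed between those times, separately with NaHS and with vehicle. In vehicle, Mmp3 fell to a mean of -0.36 ± 0.62 at 24 h, against 1.86 ± 0.74 at 6 h, and Mmp2 rose to 4.03 ± 0.20 at 24 h, against 2.81 ± 0.48 at 6 h (SD, n = 4 each). Their differences were -2.22 ± 0.43 and 1.22 ± 0.25 (SE) on the log2 scale, a 4.65-fold lower level of Mmp3 and a 2.33-fold higher level of Mmp2. With limma at an adjusted p under 0.05, 2 of the 10 genes were called, Mmp2 higher and Mmp3 lower, beside 0.806% of all 33249 genes or probes tested, 0.505% higher and 0.301% lower. The groups do not overlap for 3 of the 10 genes, Mmp2, Mmp3 and Timp2, beside 7.29% of all genes. The genes were chosen with these signals known, so nothing is read from either share.

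The other differences in vehicle did not pass the threshold. Timp2 differed by 0.57 ± 0.14, Timp3 by 0.69 ± 0.25, Mmp14 by 0.38 ± 0.19 and Mmp9 by 1.33 ± 0.82 (SE). Timp1, Mmp10, Mmp13 and Mmp7 lay between -0.14 and 0.17. The median over the 10 genes was 0.27, and over all genes tested it was 0.02.

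In NaHS, none of the 10 genes was called, beside 0.0271% of all genes, 0.0211% higher and 0.00602% lower. Mmp3 differed by -1.53 ± 0.43, Mmp2 by 0.67 ± 0.25, Timp2 by 0.49 ± 0.14 and Mmp9 by 1.43 ± 0.82 (SE), and the other 6 genes lay between -0.23 and 0.18. The groups do not overlap for 2 of the 10 genes, Mmp3 and Timp2, beside 6.25% of all genes. The median over the 10 genes was -0.03, and over all genes -0.02. The 2 arms share no arrays with each other, and whether their time differences differ is the test given with NaHS below.

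**Figure D2:**
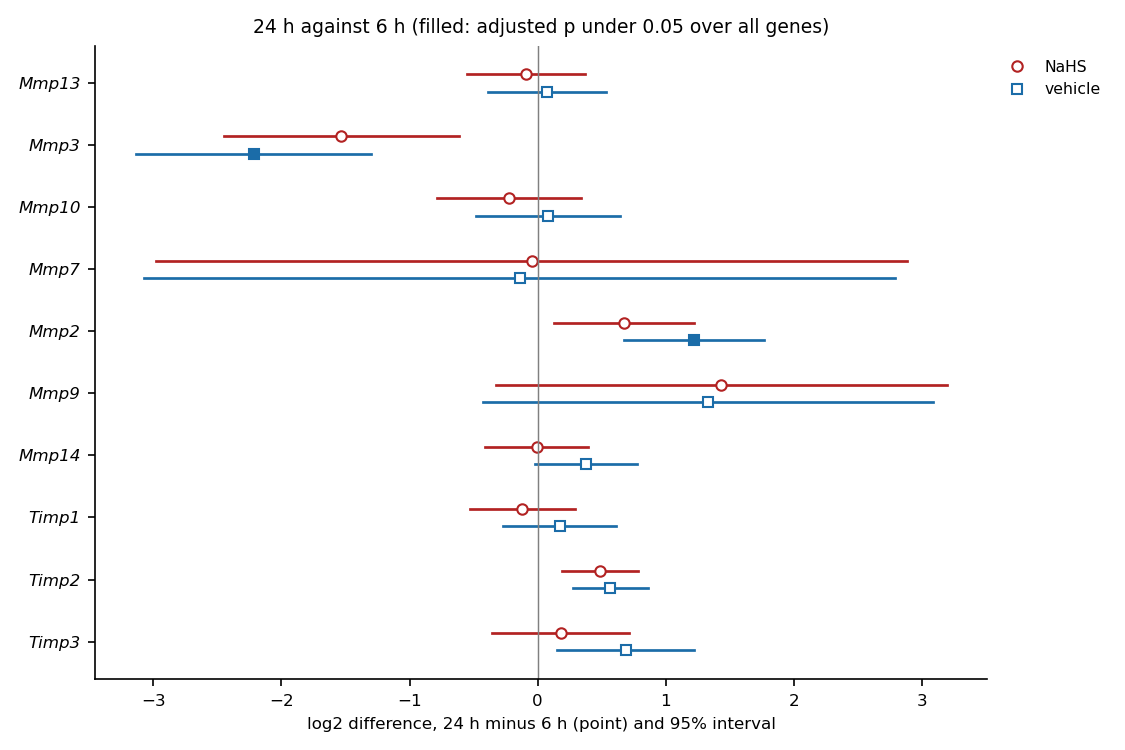
Difference between 24 h and 6 h for each gene (x axis, log2, 24 h minus 6 h), with its 95% interval, in NaHS (circles) and in vehicle (squares), filled where the adjusted p over all genes was under 0.05. Mmp3 lies left of 0 and Mmp2 and Timp2 right of 0 in both arms, but only Mmp3 and Mmp2 in vehicle are filled. The intervals are adjusted neither for the number of genes nor for their choice on these signals, and those of Mmp7 and Mmp9 are the widest.

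The 2 calls in vehicle depended on the arrays and on the fit. Within slide 1 and within slide 2, where the difference rests on 2 arrays a group, Mmp3 differed by -2.42 and -2.02 and Mmp2 by 0.98 and 1.46, with 0 of the 10 genes called on either slide. With the replicate number as a block, which here also marks the slide, Timp2 and Timp3 were called as well, 4 of 10 genes beside 898 of all genes in place of 268. Without vehicle replicate 2 at 6 h the count was 2, without replicate 3 at 6 h it was 1 (Mmp3), and without any other of the 8 vehicle arrays it was 0, with Mmp3 between -2.52 and -1.92 and Mmp2 between 0.98 and 1.35 over the 8 fits. The values of Mmp9, Timp3 and Mmp14 rest in part on replicate 4 at 6 h: without it, Mmp9 differed by 0.48 in vehicle and 0.84 in NaHS, and Timp3 by 0.44 in vehicle and 0.05 in NaHS. Mmp14 differed by 0.21 in vehicle without it.

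Markers of other cells moved between the same times. Over all 33249 genes or probes in vehicle, 268 were called and 3773 had an unadjusted p under 0.05. The mean of the 9 smooth muscle and pericyte markers was 2.88 to 3.19 at 24 h and 2.04 to 2.80 at 6 h under NaHS. Under vehicle it was 3.12 to 3.27 at 24 h and 1.83 to 2.81 at 6 h, with no overlap in either arm. Of these markers Notch3, a receptor of mural cells, rose by 1.24 ± 0.17 (SE) in vehicle (adjusted p = 0.018), as 1 of 9 called. The fibroblast markers did not move one way in vehicle: of 13 measured, 5 differences lay above 0, the median was -0.36, and Thy1, at 1.16 ± 0.23 (adjusted p = 0.041), was the only one called, while 7 had an unadjusted p under 0.05. The mean of that list overlapped, at 1.13 to 2.19 at 24 h against 1.63 to 2.04 at 6 h. The mean of 9 alveolar type II markers was 0.01 to 0.95 in vehicle at 24 h against 1.01 to 2.11 at 6 h, where the surfactant protein gene Sftpa1 fell by 3.14 on the log2 scale (adjusted p = 0.022), as 1 of 9 called. The median difference of that list in vehicle was only -0.12, with 3 of 9 above 0. Under NaHS the type II mean overlapped, at 0.53 to 1.42 at 24 h against 0.88 to 2.63 at 6 h. The mean of 9 airway and basal cell markers was -2.17 to -1.30 at 24 h against -0.72 to 0.98 at 6 h in vehicle, where the secretoglobin gene Scgb3a1 fell by 3.71 (adjusted p = 0.031), as 1 of 9 called. Macrophage markers had the highest median difference of the 8 marker lists in vehicle, at 0.91, with 9 of 10 above 0, 0 called and 6 at an unadjusted p under 0.05, and their mean was -2.19 to -1.06 at 24 h against -3.16 to -1.93 at 6 h, which overlap. In NaHS their median difference was 0.61. C1qa was the only one called there, and nothing is read from that call, because its probe was well above background on the 4 NaHS arrays at 24 h alone and passed the filter through them. Endothelial markers had a median difference of 0.70 in vehicle, with 6 of 8 above 0, 0 called and 1 at an unadjusted p under 0.05, and their mean was -3.45 to -2.60 at 24 h against -4.31 to -3.16 at 6 h. The part of these cells in the differences of Mmp2 and Mmp3 was not tested.

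**Figure D3:**
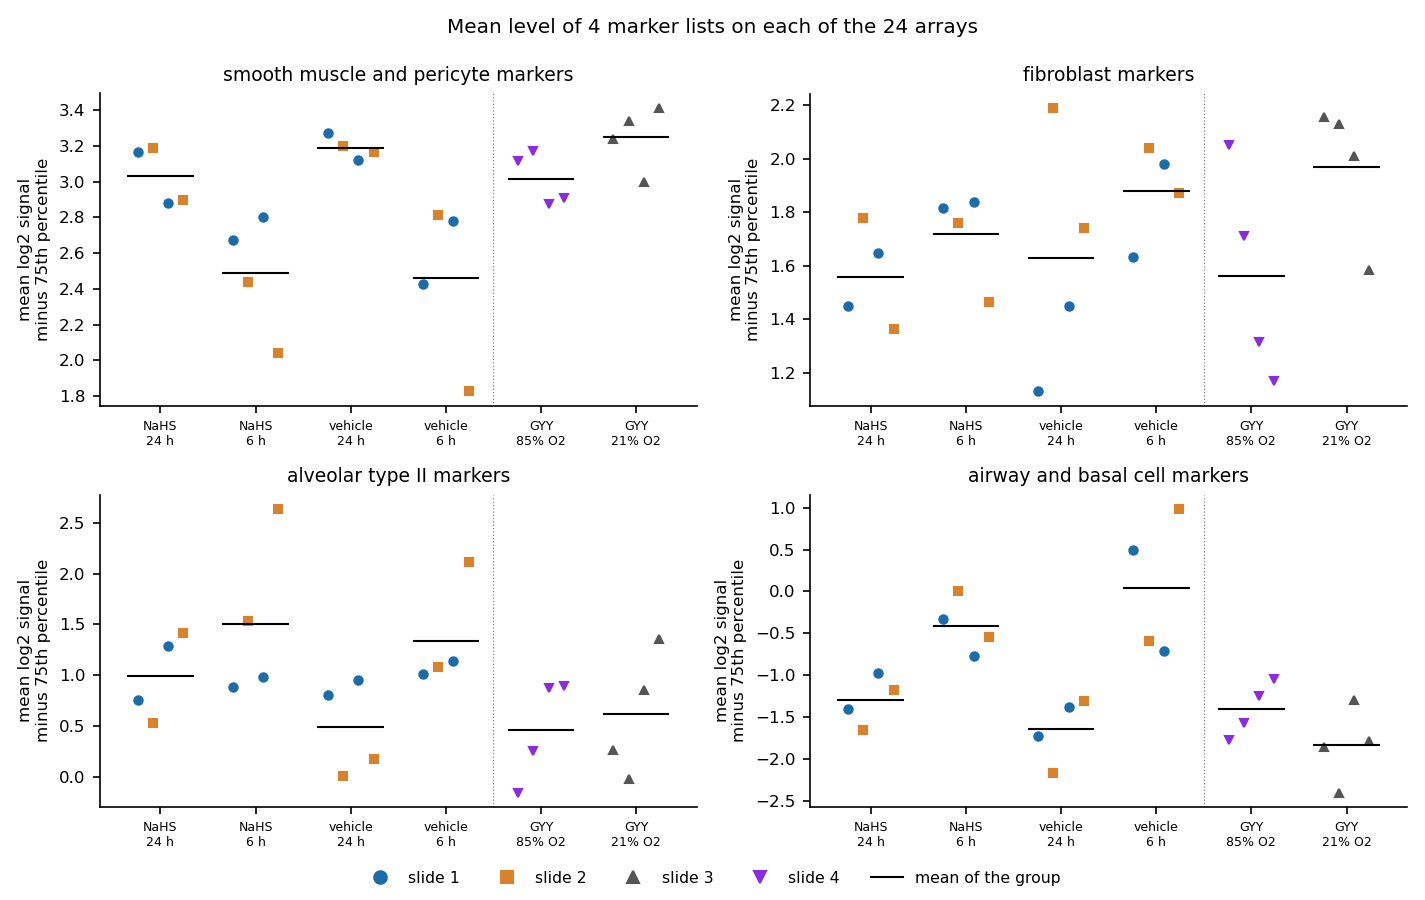
Mean level of 4 marker lists (y axis, mean log2 processed signal minus the 75th percentile, over the 9 to 13 genes measured) on every array, by group, with replicates 1 to 4 from left to right, the symbol giving the slide and the line the group mean. The smooth muscle and pericyte list lies higher and the airway list lower at 24 h than at 6 h in both arms, without overlap.

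The wider protease system was read from 5 lists of related genes. Of 76 genes on them, 68 passed the filter in each experiment. In vehicle, none of the 68 was called for 24 h against 6 h: 0 of 13 other metalloproteinases and inhibitors, 0 of 25 ADAM and ADAMTS proteases, 0 of 10 genes of plasminogen activation, 0 of 9 activators and docking or uptake partners, and 0 of 11 AP-1 and Ets factors. At an unadjusted p under 0.05 the 5 lists held 1, 6, 2, 3 and 3 genes in that order, beside 3773 of all 33249. Closest to the threshold was Fos, the AP-1 subunit that pairs with Jun, at -0.64 ± 0.14 (adjusted p = 0.053), with its 4 arrays at 24 h all below those at 6 h. In NaHS it differed by -0.54 ± 0.14 (adjusted p = 0.253). Fosl1, another partner of Jun, differed by -0.27 ± 0.12 in vehicle (adjusted p = 0.366). With the replicate number as a block, 2 of the 68 were called in vehicle, Adam9 and Fos.

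Among the other named related genes in vehicle, the membrane protease gene Adam9 differed by 0.58 ± 0.14 (adjusted p = 0.064), and Plau, the urokinase that turns plasminogen into plasmin, by -0.68 ± 0.24 (adjusted p = 0.222). Lrp1, the receptor that clears proteases and their inhibitors, differed by 0.72 ± 0.26 (adjusted p = 0.261), and Lcn2 (lipocalin-2) by 1.22 ± 0.45 (adjusted p = 0.271). Reck, a membrane-anchored inhibitor of several metalloproteinases, differed by 0.38 ± 0.18 (adjusted p = 0.439), and Mmp23 by 0.43 ± 0.22 (adjusted p = 0.536). In NaHS none of the 68 was called either, and Mmp8, the collagenase of neutrophils, differed by -1.40 ± 0.55 (adjusted p = 0.522). Cd44, a docking site for Mmp9, differed there by 0.35 ± 0.12 (adjusted p = 0.450), and Adamts14, a procollagen peptidase, by 1.20 ± 0.37 (adjusted p = 0.332).

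The comparison of NaHS with vehicle asks whether a fast hydrogen sulfide donor changed these transcripts at 6 h or at 24 h. None of the 10 genes was called at either time, and the groups overlap for every one of them. Over all 33249 genes tested 0 were called at either time, so the share called was 0% in both, and 196 genes at 6 h and 758 at 24 h had an unadjusted p under 0.05. The groups do not overlap for 0.647% of all genes at 6 h and 1.79% at 24 h. These comparisons use the same arrays as those between times, and the values are given beside each other only.

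The size of a donor effect was bounded unevenly. At 6 h, Timp2 differed by -0.03 with a 95% interval of -0.32 to 0.27, Mmp14 by 0.15 (-0.25 to 0.55), Mmp2 by 0.26 (-0.29 to 0.80) and Mmp3 by -0.85 (-1.77 to 0.07). Mmp3 averaged 1.01 ± 0.46 in NaHS and 1.86 ± 0.74 in vehicle there (SD, n = 4 each). At 24 h, Timp2 differed by -0.11 (-0.41 to 0.18), Mmp14 by -0.23 (-0.63 to 0.17), Mmp2 by -0.29 (-0.84 to 0.26) and Mmp3 by -0.17 (-1.09 to 0.75). Timp1 differed by -0.29 (-0.70 to 0.12) and Timp3 by -0.39 (-0.93 to 0.14) at 24 h. At 6 h, with 3 vehicle values, Timp1 differed by -0.00 (-0.45 to 0.44), and Timp3 by 0.12 (-0.42 to 0.65). Mmp10 differed by -0.48 (-1.05 to 0.08) at 24 h, which was 0.04 within slide 1 and -1.01 within slide 2, and by -0.18 (-0.74 to 0.38) at 6 h. The intervals of Mmp9 reached from -1.68 to 1.83 at 6 h and from -1.57 to 1.94 at 24 h, and those of Mmp7 were wider still, so neither gene says much about a donor effect.

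At 24 h the median over the 10 genes was -0.25, with 9 of 10 differences below 0, against -0.01 over all genes. That count is not stable: Timp2 turned above 0 under quantile normalization and in the deposited value table, Mmp3 (up to 0.04) and Mmp7 (up to 0.75) did so with an array left out, and Mmp3, Mmp10 and Mmp13 stood at 0.39, 0.04 and 0.02 within slide 1, as Mmp7 and Timp2 did at 0.60 and 0.01 within slide 2. At 6 h the median was -0.02 with 6 of 10 below 0, against 0.00 over all genes, and Timp1, at -0.00, turned above 0 under 3 of 5 scalings. The change of the donor effect between the times was estimated directly as the NaHS difference at 24 h minus that at 6 h. None of the 10 genes and none of all genes was called for it, at 0% of 33249, with 359 at an unadjusted p under 0.05. It was -0.55 ± 0.36 for Mmp2, 0.69 ± 0.60 for Mmp3, -0.51 ± 0.35 for Timp3 and -0.39 ± 0.26 for Mmp14 (SE), so the time differences of the 2 arms were not shown to differ. Of the 68 related genes, none was called in any of these 3 comparisons, and at 24 h Mmp8 differed by -1.25 ± 0.55, Adamts18 by 1.46 ± 0.58 and Plau by 0.51 ± 0.24 (SE).

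**Figure D4:**
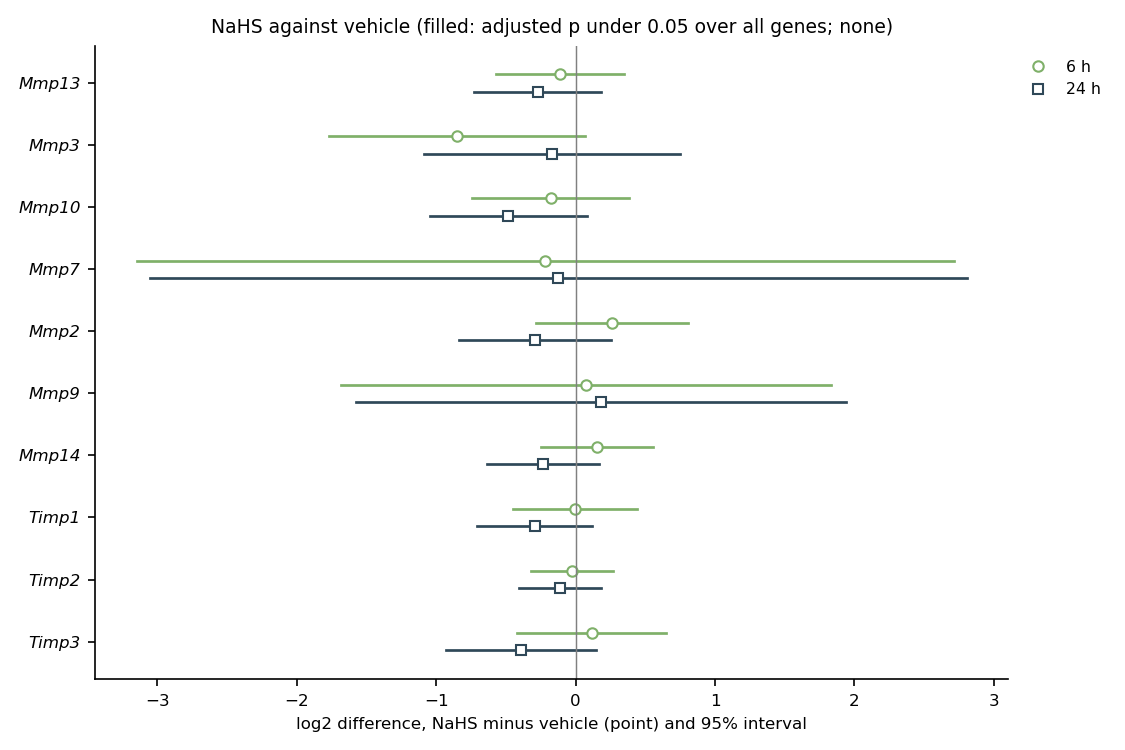
Difference between NaHS and vehicle for each gene (x axis, log2, NaHS minus vehicle), with its 95% interval, at 6 h (circles) and at 24 h (squares). All 20 intervals include 0, and they are narrowest for Timp2 and widest for Mmp7.

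The comparison of 85% with 21% O2, both with GYY4137, asks how high oxygen changed the transcripts while a slow donor was present. None of the 10 genes was called, beside 15.5% of 34634 genes or probes, 9.9% higher and 5.61% lower. The groups overlap for all 10, while they do not for 22.9% of all genes. As the genes were chosen with these signals known, nothing is read from that contrast.

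The differences farthest from 0 were those of the gelatinases and Mmp7. Mmp9 stood at 1.32, 1.70, 0.98 and 1.43 in 85% O2, against 0.93, 0.87, -0.44 and 1.06 in 21% O2, and differed by 0.75 ± 0.33 (SE, 95% interval -0.01 to 1.52). Mmp2 stood at 4.18, 4.32, 4.50 and 3.81 in 85% O2, against 3.01, 3.44, 4.10 and 3.91 in 21% O2, and differed by 0.59 ± 0.26 (-0.00 to 1.18). Mmp7 stood at -4.56, -4.81, -4.86 and -5.60 in 85% O2, against -4.49, -4.85, -4.24 and -4.02 in 21% O2, and differed by -0.55 ± 0.26 (-1.15 to 0.04). For each of the 3 genes the arrays of one oxygen level mostly lie to one side, and 1 or more arrays of the other level reach among them. With the replicate number as a block the SE became 0.21 for Mmp9, 0.23 for Mmp2 and 0.30 for Mmp7, and none of the 10 genes was called. Within the 4 pairs of the same number, Mmp9 was higher in 85% O2 in all 4. Leaving out 1 array moved each of the 3 values by over 1.5 times: Mmp9 differed by 0.40 without replicate 3 in 21% O2, Mmp2 by 0.39 without replicate 1 in 21% O2, and Mmp7 by -0.34 without replicate 4 in 85% O2.

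Mmp14 differed by 0.40 ± 0.22, Mmp13 by 0.33 ± 0.30, Mmp10 by 0.19 ± 0.53 and Mmp3 by 0.08 ± 0.30 (SE). Mmp14 was higher in 85% O2 in all 4 pairs, with an SE of 0.12 under the replicate block, and Mmp13 differed by 0.16 without replicate 4 in 85% O2. The sign of Mmp10 rested on replicate 4 in 21% O2, since without it the difference was -0.38, and that of Mmp3 turned under median centring, at -0.06, without that same array, at -0.13, and without replicate 3 in 85% O2, at -0.10. The inhibitors lay close to 0, at -0.17 ± 0.16 for Timp1, -0.08 ± 0.17 for Timp2 and -0.13 ± 0.19 for Timp3, and the junction probe of Timp2 gave 0.27. The sign of Timp2 also turned, to 0.01 under quantile normalization and 0.09 as the mean of both probes, and, to 0.01 each, without replicate 4 in 85% O2 or replicate 3 in 21% O2. Without replicate 4 in 85% O2, Timp3 turned to 0.03 and Timp1 came to -0.04. The median over the 10 genes was 0.14, and over all genes it was 0.06.

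**Figure D5:**
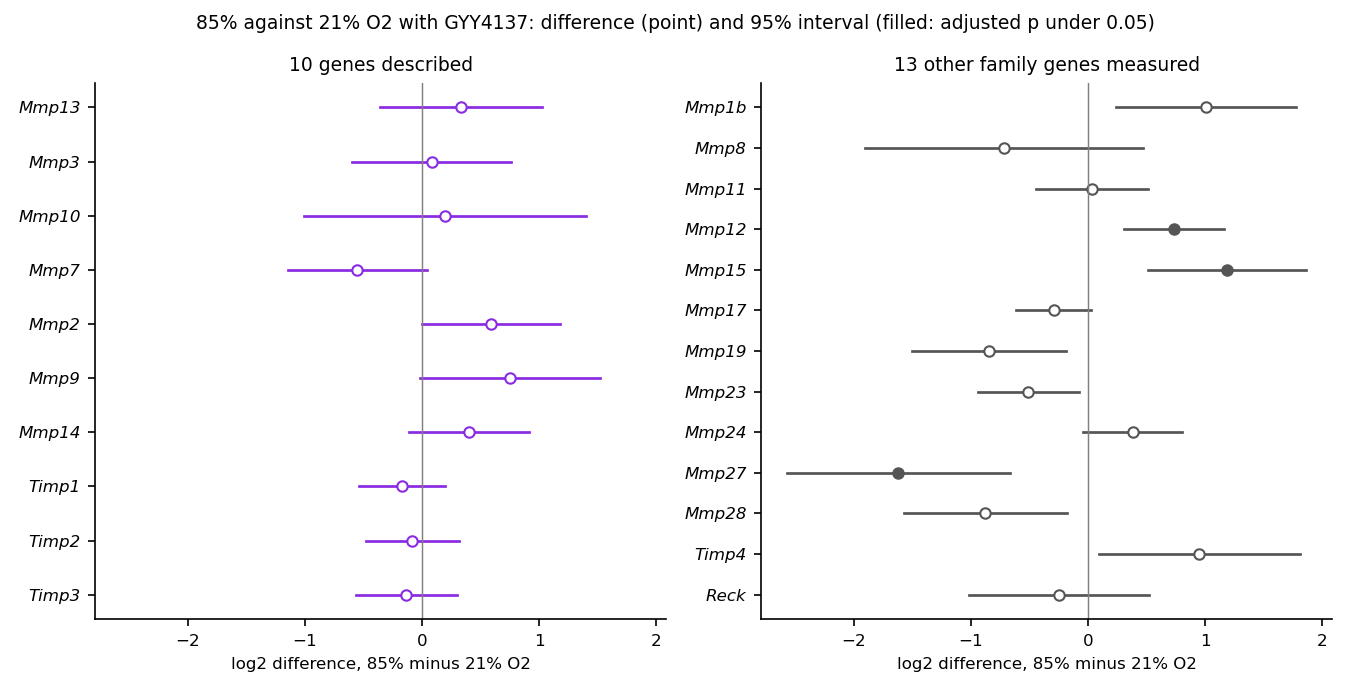
Difference between 85% and 21% O2 with GYY4137 (x axis, log2, 85% minus 21%), with its 95% interval, for the 10 genes described here (left) and the 13 other family genes measured (right), filled where the adjusted p over all genes was under 0.05. None of the 10 is filled, while Mmp12 and Mmp15 are filled right of 0 and Mmp27 left of it.

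Of the 68 related genes, 10 were called between the oxygen levels, 7 higher and 3 lower in 85% O2, beside the 15.5% of all genes. Among 13 other metalloproteinases and inhibitors, Mmp15 (a membrane-type enzyme) averaged 0.45 ± 0.46 in 85% O2 and -0.74 ± 0.47 in 21% O2, a rise of 1.19 ± 0.29 (adjusted p = 0.032). Mmp12, the elastase of macrophages, averaged -2.59 ± 0.26 in 85% O2 and -3.33 ± 0.28 in 21% O2, a rise of 0.73 ± 0.19 (adjusted p = 0.035). Mmp27 fell by 1.62 on the log2 scale (adjusted p = 0.036), but its probe was well above background on only 1 of 4 arrays in 85% O2 and on 4 of 4 in 21% O2. It passed the filter through the arrays in 21% O2, so nothing is read from that call, which the count of 10 includes. The median of these 13 genes was -0.25.

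Of the other lists, 2 of 25 ADAM and ADAMTS proteases were called. Adam28 averaged -3.19 ± 0.45 in 85% O2 and -5.08 ± 0.26 in 21% O2, a rise of 1.89 ± 0.24 (adjusted p = 0.0038), and Adamts1, which cleaves proteoglycans, fell by 1.08 on the log2 scale (adjusted p = 0.040). Of 10 genes of plasminogen activation, Serpine2, an inhibitor of thrombin and plasminogen activators, rose by 1.43 ± 0.32 (adjusted p = 0.023) and Serpinf2, the inhibitor of plasmin, by 0.60 ± 0.14 (adjusted p = 0.027).

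Of 11 AP-1 and Ets factors, Fosl1 rose by 1.07 ± 0.18 (adjusted p = 0.0093) and Etv4 by 0.65 ± 0.14 (adjusted p = 0.022), while Jun fell by 0.69 on the log2 scale (adjusted p = 0.028). Fosl1 averaged 1.69 ± 0.21 in 85% O2 and 0.62 ± 0.30 in 21% O2, and Jun averaged 4.18 ± 0.22 in 85% O2 and 4.87 ± 0.23 in 21% O2 (SD, n = 4 each), in both cases without overlap. None of 9 activators and docking or uptake partners was called. The count of 10 rested on few arrays: it was 2 without replicate 3 and 2 without replicate 4 in 85% O2, 3 without replicate 2 and 5 without replicate 3 in 21% O2, and 8 to 12 without any of the other 4 arrays.

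Cell markers moved with oxygen level, or slide, as well. Over all 34634 genes or probes tested, 15.5% were called and 11797 had an unadjusted p under 0.05. The fibroblast list had a median difference of -0.35, with 1 of 13 markers called, Thy1 lower, and its mean was 1.17 to 2.05 in 85% O2 and 1.58 to 2.16 in 21% O2. Of 9 smooth muscle and pericyte markers, Notch3 rose and Des fell, with a median difference of -0.41 over the list. None of 11 macrophage markers was called, 9 lay above 0 with a median difference of 0.48, and their mean was -2.98 to -0.95 in 85% O2 and -2.99 to -1.98 in 21% O2. Of 9 alveolar type II markers Lamp3, a lamellar body protein, fell by 1.05 on the log2 scale (adjusted p = 0.0045), as 1 of 9 called. Of that list 4 lay above 0 with a median difference of -0.31, and its mean overlapped, at -0.15 to 0.89 in 85% O2 against -0.02 to 1.36 in 21% O2. Airway and endothelial lists had the highest median differences of the 8 lists. Of 9 airway and basal cell markers, 7 lay above 0 with a median difference of 0.76, Foxj1 and Tppp3, genes of ciliated cells, rose, and 6 had an unadjusted p under 0.05. Of 6 endothelial markers, Tek rose and the median difference was 0.59, and the mean of the list did not overlap, at -2.67 to -2.16 in 85% O2 against -3.08 to -2.80 in 21% O2. Of 7 neutrophil markers, Mpo fell as the only one called, while 4 lay above 0 and the median difference was 0.25. Their part in the values of the proteases was not tested.

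The genes that varied most like each of the 10 were sought over the 16 arrays of the first experiment, after the mean of each slide was taken off. The points share their arrays and their times of exposure, the likeness was picked as the highest among all named genes, and Pearson's r is given as a description. Mmp9 was followed most closely by Pdgfc (r = 0.99), Rfx8 (0.98) and Slc41a2 (0.98), over arrays 2 of which lie far below the rest for Mmp9. Mmp2 was followed by Cela3a (0.96), Tmem218 (0.96) and Gria3 (0.96), and Mmp3 by Ltf (0.94), Oxsr1 (0.93) and Tslp (0.93). Mmp14 was followed by Soat1 (0.95), Csdc2 (0.93) and Crtap (0.91). Timp3 was followed by Aebp1 (0.96), Drc3 (0.95) and Fcgrt (0.95), and Timp2 by Ivl (0.94), Hyal1 (0.93) and Acad11 (0.93). For Mmp10 the closest was Elovl6 (0.92), and for Mmp13 it was Abcb1b (0.86). Timp1, with a value missing, and Mmp7, dim on slide 1, were not matched.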

How the data were processed

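Total RNA of 24 samples was read on one-colour Agilent mouse arrays, 4 in each of 6 groups set by the labels. The intensity values are processed signals that the authors deposited as scanner output of Agilent Feature Extraction 10.7.3.1, background-subtracted and detrended per the file headers, with no normalization between arrays. The authors also deposited a table of log2 values, whose steps are not given in the sources used here, and it was used as an alternative.

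Here, spots marked as uneven or as outliers were left out, spots of a probe were averaged as log2, and the 75th percentile of each array was subtracted. Probes well above background on at least 4 arrays of an experiment were kept, and the probe with the highest mean stood for its gene. All 10 genes passed in both experiments. Each experiment was fitted with limma 3.58.1 in R 4.3.3, a mean per group, and Benjamini-Hochberg adjustment over all genes at 0.05. The procedure was tested on simulated data. The genes described, the related lists and the markers were chosen with earlier results of these data known. Named from the related lists were, per comparison, up to 4 called genes with the smallest p, or up to 2 where none was called, of which the text gives part. For genes well above background on at least 12 of 16 arrays, the 3 named genes of highest Pearson r were sought. The precision is limited by 4 arrays a group. Probe coordinates are those of the array design on mm9, promoters are from RefSeq on GRCm38.p6, and the 2 builds were not mixed. Values were handled with Python 3.11.15, numpy 2.4.6 and pandas 2.3.3, and figures were drawn with matplotlib 3.10.9.

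Replicate numbers are shared between groups. Deviations from group means of samples with the same number correlated at 0.54 to 0.75 in the 24 pairs of the first experiment, where odd numbers lie on slide 1 and even ones on slide 2, and at 0.18 to 0.26 in the 4 pairs of the second. In the first experiment, samples with other numbers on the same slide correlated at 0.42 to 0.70. With the slide mean taken off, the range for the same number became -0.17 to 0.27. The numbers are therefore not shown to pair its samples beyond the shared slide. In the second, samples with other numbers correlated at -0.22 to 0.16, so samples with the same number were more alike there. Alternatives were another background correction (normexp, offset 50), quantile normalization, median centring, another percentile base, the deposited table, other filters, the mean of a gene's probes, slide and replicate as blocks, each slide alone, only the groups compared, and leaving out each array.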

Additional observations from a re-analysis of the deposited data

Results flagged for a closer look

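In each of 65 sets of 4 values (a probe in a group), the highest and the lowest value were set against the rest by Dixon's criterion, which chance passes in about 1 of 20 sets, and 2 passed. Mmp9 in 21% O2 stood at -0.44 on replicate 3, against 0.87 to 1.06 on the other 3 arrays. The 10 spots of its probe had an SD of 0.23 on that array. The junction probe of Timp2 in 85% O2 stood at 5.36 on replicate 2, against 4.80 to 4.89 on the other 3 arrays, while the probe that stands for Timp2 stood at 6.58 on the same array, within the range of its group. The cause of either value was not tested.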

How the results depend on the processing

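For 24 h against 6 h in vehicle, the count of called genes among the 10 (2, Mmp2 and Mmp3) was 1 with quantile normalization, 1 with the deposited value table (Mmp3 in both), and 0 with median centring, with no filter on dim probes, within slide 1, within slide 2, and with only the groups compared in the fit. It was 4 with the replicate block, 3 with normexp and with the filter by group, and 0 to 2 when each array was left out in turn. The replicate block changed no other call of the 10 genes. Related genes called in vehicle numbered 0, but 3 with normexp, 1 with the percentile over probes above background on all arrays, 2 with the filter by group, 2 with slide as a block and 2 with the replicate block. In 85% against 21% O2 the 10 related genes became 2 to 12 when each array was left out in turn, and 7 to 14 under the other settings. In every other comparison, 0 of the 10 genes and 0 of the related genes were called under all settings run. Over all genes, the vehicle count of 268 was 1 with median centring, 898 with the replicate block and 7 to 340 with an array left out. No difference of the 10 genes that was called changed sign under any setting run, 13 values under alternatives moved by more than the spread between replicates (1272 did not), and all but the mean of both Timp2 probes in vehicle (0.36) were values within 1 slide. Weak signal limits Mmp7 most, since its probe was not well above background on slide 1. The causes of these changes were not tested.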
